A study of Mus musculus with 8 samples.

Results

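The comparison described here is the part of the Jmjd1c knockout effect that 2 states of splenic B cells shared. All 8 libraries of the series entered it: 2 each of wild-type (WT) and knockout (KO) germinal center B cells, and 2 each of WT and KO activated B cells. All came from the spleen of C57BL/6 mice, and the KO genotype is labelled Jmjd1c B KO. The germinal center cells were sorted by FACS. The activated cells were first enriched from spleen with PanB biotin and streptavidin beads and then activated. The labels leave out the exons removed, the Cre line, the stimulus, the age of the mice and any immunization. They also do not say that replicates came from separate mice, so a p-value reflects the spread of these libraries alone, and that spread may be technical.

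A gene belonged to the shared set when its KO over WT change had the same sign in both states, whatever its size. Of 14992 genes tested, 7224 met this rule. Among them 3542 were higher and 3682 were lower in KO, while 6831 genes had opposite signs and 937 had fewer than 10 counts in a state and so no sign. The shared set is 51.4% of the 14055 genes with a sign in both states. The sign chose the members, so a shared direction is given below as a description. Whether a member changed was tested in 2 ways. The additive test fitted 1 KO effect to all 8 libraries with cell state as a block. The stricter test took the larger of the p-values from the 2 states, each fitted on its own 4 libraries, so that a gene had to change in each state. "Rose in both states" and "fell in both states" refer below to the stricter test at an adjusted p under 0.05.

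JMJD1C belongs to the KDM3 family of Jumonji proteins, known for removing methyl groups from H3K9, a histone mark of silent chromatin. In a germinal center, B cells divide quickly, mutate their antibody genes and compete for T cell help, under transcription factors that include BCL6 and MEF2B. Cells leave it as memory B cells or as plasma cells, and the step to a plasma cell is driven by BLIMP1 and XBP1. Interferon-stimulated genes form a separate antiviral program that factors such as IRF9 turn on through a short promoter element.

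Each library held between 8777425 and 11414559 counts on genes. Levels are given as CPM, counts scaled to a common library size, after TMM normalization over the 8 libraries. The summed level of 6 defining B cell genes lay between 6864 and 9673 CPM in every library. The 9 defining germinal center genes summed to 3615 and 3617 CPM in WT germinal center libraries and to 167 and 168 CPM in WT activated ones. Reads on mitochondrial genes made up 9.20% and 9.52% of counts in KO germinal center libraries and 5.27% and 5.51% in WT ones, against 2.26% to 2.66% in the activated libraries. The biological coefficient of variation was 11.05% in the additive fit and 3.298% in a fit of the 4 group means.

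Jmjd1c itself fell in both states (chromosome 10, 67096125 to 67256326, plus strand, GRCm38). Its level was 163 and 158 CPM in the KO germinal center libraries and 194 and 178 CPM in the WT ones. In activated B cells it was 136 and 153 CPM in KO and 274 and 283 CPM in WT. Every KO library lay below every WT library of its state, but the fall was small in germinal center cells. The log2 fold change there was -0.21 ± 0.047 (SE) against -0.94 ± 0.059 in activated cells, with an adjusted p of 0.00663 for a change in both. The additive effect was -0.58 ± 0.13 (adjusted p = 0.0490), and the difference between the states passed the test (adjusted p = 1.39e-14). Since the deleted exons are not given, a count over the whole gene does not measure how much intact transcript was left. Its closest relatives Kdm3a and Kdm3b, which are also H3K9 demethylases, were not called in the additive test (0.056 and -0.0085). Of 13 H3K9 demethylase genes tested, Jmjd1c was the one called in both states (1.91% of all genes were). Of 22 H3K9 methyltransferase and heterochromatin genes none was called by either test, too few genes for these shares to tell (1.91% and 3.15% of all genes were). In germinal center cells alone 11 of the 22 were called lower and 4 higher (22.1% and 22% of all genes were).

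The shared response was small beside the response of germinal center cells, had fewer calls than activated cells alone, and leaned towards genes that rose. The additive test called 573 genes (3.82% of all tested), of which 472 (3.15%) were members, and of these 302 (2.01%) were higher and 170 (1.13%) lower. The stricter test called 287 members (1.91%), of which 257 rose in both states (1.71%) and 30 fell (0.2%). Germinal center B cells alone had 6601 calls (44%) and activated B cells 849 (5.66%). The sign rule alone gave near-equal numbers in each direction, so the excess of risers lies among the genes with a call.

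Since the states share no library, the calls of one can be looked up in the other. In activated cells 4.42% of all genes tested rose and 1.25% fell. Of the 662 genes that rose there, 522 had a sign in both states. Of these 522, 406 (77.8%) were also higher in KO germinal center cells. In those cells 335 (64.2%) were called higher and 69 (13.2%) lower (22% and 22.1% of all genes were), and the median log2 fold change was 0.87. Of 182 genes with a sign that fell in activated cells, 85 (46.7%) were lower in KO germinal center cells, 55 were called lower (22.1% of all genes were) and 55 were called higher. In the other direction, 56.1% of the 3242 genes that rose and 51.5% of the 3258 genes that fell in germinal center cells had the same sign in activated cells. Genes that fell in activated cells thus showed no common direction in germinal center cells. Across the 14055 genes with a sign in both states, the 2 sets of log2 fold changes had a Pearson r of 0.20 and a Spearman rho of 0.09, as a description over genes, which are not independent replicates.

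**Figure D1:**
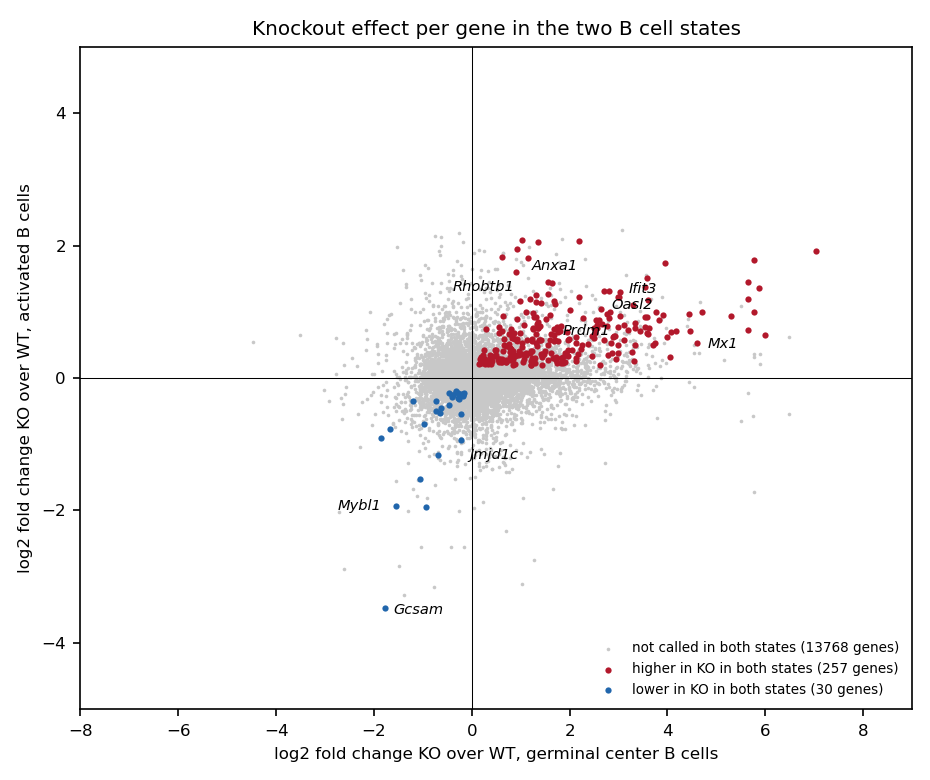
Log2 fold change KO over WT in germinal center B cells (x axis) against activated B cells (y axis), 1 point per gene with a sign in both states; coloured points are the 257 genes that rose and the 30 that fell in both states. Most of the coloured points lie farther from 0 along the germinal center axis.

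Most genes called in both states moved further in germinal center cells. The effect was the larger one there for 250 of the 287 genes (87.1%), and for 193 (67.2%) the difference between the states passed its own test (31.2% of all genes tested did). The 257 risers had median log2 fold changes of 1.44 in germinal center and 0.57 in activated cells. The 30 that fell had medians of -0.43 and -0.35, against 0.0033 and 0.00055 over all genes tested. A change of at least 2-fold in each state was reached by 32 risers and by 3 of the genes that fell.

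The choice of test mattered for these counts. The additive and the stricter test shared 196 genes, 41.5% of the additive members called and 68.3% of the stricter calls. The additive spread includes the difference between the states, and with the 4 group means fitted instead 1855 genes were higher and 1597 lower. Without activated WT replicate 2 the stricter counts were 67 higher and 7 lower, without activated WT replicate 1 they were 98 and 9, and with DESeq2 they were 91 and 9. Without any 1 of the germinal center libraries the additive counts were 87 to 104 higher and 25 to 28 lower, and the lists of MHC class I, MHC class II, B cell receptor signaling and memory genes described below then had 0 additive calls. At the additive threshold, Myof lay just inside (log2 0.65, adjusted p = 0.0499) and Lsm2 just outside (-0.41, adjusted p = 0.0500006). Without regard to any test, 1533 genes (10.2%) had every KO library above every WT library in both states and 1228 (8.19%) had every KO library below.

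Germinal center genes were the clearest group that fell. Of 36 genes of the germinal center program tested, 6 fell in both states and none rose (0.2% of all genes fell). Among them were Gcsam, Mybl1, Mef2b, Neil1 and Mef2c. The additive test called 11 lower (1.13% of all genes were) and none higher, adding S1pr2, Rgs13, Nuggc, Polh and Efnb1. The list's median log2 fold change was -0.43 in germinal center and -0.04 in activated cells. In activated cells 7 of the 36 were called lower (1.25% of all genes were). The count that fell in both was 3 with either activated WT library left out, 4 without activated KO replicate 1 and 4 with DESeq2. Without 1 germinal center library the additive count was 5 or 6.

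Gcsam, which encodes a signaling adaptor that limits germinal center B cell movement, had the largest fall among genes called by both tests. Its level was 105 and 100.6 CPM in KO and 352 and 347 CPM in WT germinal center libraries, and 0.614 and 0.303 CPM in KO and 4.75 and 5.65 CPM in WT activated libraries. The KO libraries lay below the WT ones in both states. That separation was part of the rule for choosing the top genes in each direction and is a description here and for those genes below. In activated cells the KO values rest on 6 and 3 counts. Gcsam reached the 10 counts needed for a sign there only through WT libraries, so the rule set its direction in activated cells. The log2 fold changes were -1.77 ± 0.043 and -3.47 ± 0.39 (adjusted p for both states = 5.64e-06). Mybl1, a MYB family transcription factor of germinal center B cells, was at 265 and 262 CPM in KO and 788 and 759.7 CPM in WT germinal center libraries. In activated libraries it was at 2.76 and 2.32 CPM in KO and 9.91 and 9.61 CPM in WT. The groups did not overlap in either state, and the log2 fold changes of -1.56 ± 0.035 and -1.93 ± 0.21 were not shown to differ (difference -0.38 ± 0.21, adjusted p = 0.188).

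Mef2b, a transcription factor that activates Bcl6, was at 268 and 268 CPM against 433 and 429 CPM in germinal center and 2.56 and 1.72 CPM against 5.06 and 4.56 CPM in activated libraries. Its log2 fold changes were -0.69 ± 0.036 and -1.16 ± 0.28. Neil1, a DNA glycosylase of base excision repair, was abundant enough in both states for precise values, 812 and 824 CPM against 1064 and 1084 CPM and 81.6 and 89.9 CPM against 104 and 106 CPM. It fell by less, with log2 fold changes of -0.40 ± 0.030 and -0.29 ± 0.067. Mef2c, a relative of Mef2b used by all mature B cells, changed by -0.21 ± 0.036 and -0.24 ± 0.054.

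Not all defining germinal center genes were called in both states. Of the 9 defining markers 4 fell in both states, Gcsam, Mybl1 and Mef2b among them. S1pr2, a receptor that confines cells to the germinal center, was lower in both states and called lower by the additive test (-0.45, adjusted p = 0.0139) but was not called in activated cells (-0.44 ± 0.21, adjusted p = 0.288). Rgs13 and Nuggc were in the same position (-0.36 ± 0.18 and -0.55 ± 0.24 in activated cells). Bcl6, the master repressor of the program, fell in germinal center cells (-0.58 ± 0.037) and was 0.17 ± 0.061 in activated cells (adjusted p = 0.137), and Fas also had opposite signs, so neither is a member. The summed level of the 9 markers was 2039 and 2046 CPM in KO against 3615 and 3617 CPM in WT germinal center libraries. It was 154 and 163 CPM in KO and 167 and 168 CPM in WT activated libraries. In bulk RNA, fewer cells of a type and less RNA per cell cannot be told apart.

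**Figure D2:**
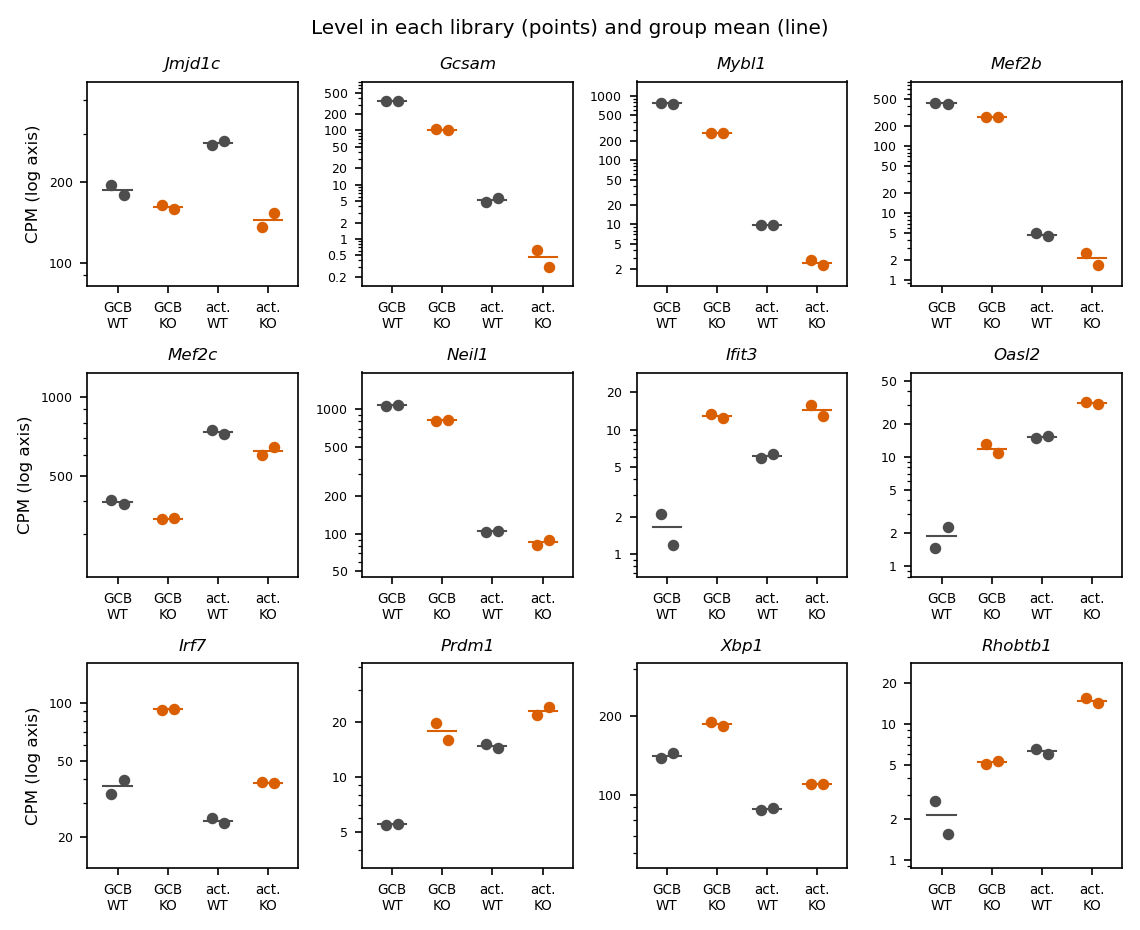
Level in CPM (log axis) of 12 genes called in both states, 1 point per library and a line at the mean of each group (GCB, germinal center; act., activated). In every panel the KO libraries of a state lie on the same side of its WT libraries, and Gcsam, Mybl1 and Mef2b are far lower in activated than in germinal center cells of either genotype.

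Of 79 interferon-stimulated genes tested, 22 rose in both states and none fell (1.71% of all genes rose). The additive test called 23 higher (2.01% of all genes were) and none lower. All 71 members with a shared sign were higher in KO. The list's median log2 fold change was 1.57 in germinal center cells, with genes near 0 counts at their lower bound, and 0.26 in activated cells. In germinal center cells 73 of the 79 were called higher (22% of all genes were). In activated cells 27 were called higher and 1, Ifi208, lower (4.42% and 1.25% of all genes were). The size of the change differed between the states for 63 of the 79 (31.2% of all genes). The count of risers was 5 without activated WT replicate 2, 10 without activated WT replicate 1, 11 with DESeq2 and 15 without activated KO replicate 1, and the additive count was 6 or 7 without any 1 germinal center library. Summed monocyte and macrophage markers moved the same way (166 and 181 CPM in KO against 54.6 and 54.7 CPM in WT germinal center libraries, 1677 and 1841 CPM against 1036 and 1084 CPM in activated ones), and their part in the result was not tested.

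The 22 risers were Mx1, Oas2, Oas3, Oasl2, Ifit1, Ifit3, Ifit3b, Ifit1bl1, Isg15, Rsad2, Irf7, Irf9, Zbp1, Trim30a, Rtp4, Ifi27l2a, Phf11b, Adar, Ly6a, Sp140, Gbp2 and Igtp. They include 2 factors that drive the response, Irf7 and Irf9. To show what their promoters have in common, the promoter table of RefSeq (GRCm38.p6, 250 bases before to 50 after each gene start) was searched for the interferon-stimulated response element, written as GAAA, any 2 bases and GAAA, on both strands, overlapping matches included. The element was in 13 of 21 promoters (61.9%) of the 16 matched risers, in 36 of 79 promoters (45.6%) of the interferon list and in 3.44% of all 32851 promoters. It was in 27 of 190 promoters (14.2%) of the 148 matched genes among all that rose in both states, and in 0 of 27 promoters of the 20 matched genes among those that fell. The 190 promoters include those of the interferon risers, with 13 of the matches. That list was picked for this response, so the 14.2% is not a share apart from it. In each of these 120-base windows upstream of a gene start, written in the direction of transcription, capitals mark the element on either strand.
Ifit3, chr19:34583333-34583452, plus strand: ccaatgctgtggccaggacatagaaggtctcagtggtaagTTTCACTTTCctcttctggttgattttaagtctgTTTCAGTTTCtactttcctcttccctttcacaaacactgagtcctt
Ifit1bl1, chr19:34601993-34602112, minus strand: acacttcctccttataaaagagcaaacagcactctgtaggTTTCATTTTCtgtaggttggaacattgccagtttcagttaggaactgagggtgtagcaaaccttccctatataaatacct
Rsad2, chr12:26456493-26456612, minus strand: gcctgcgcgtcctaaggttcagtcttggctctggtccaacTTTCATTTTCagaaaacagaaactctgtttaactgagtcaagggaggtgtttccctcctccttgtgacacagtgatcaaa
Isg15, chr4:156200819-156200938, minus strand: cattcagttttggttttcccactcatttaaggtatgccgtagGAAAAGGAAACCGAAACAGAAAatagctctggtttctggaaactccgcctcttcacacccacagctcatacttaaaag
Gbp2, chr3:142620543-142620662, plus strand: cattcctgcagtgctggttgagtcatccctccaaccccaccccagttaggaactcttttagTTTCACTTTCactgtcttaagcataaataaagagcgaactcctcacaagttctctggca
Ifit3 has 2 separate elements in this window, and Isg15 has 3 that overlap in 1 run. A match is a description of the letters and shows no binding.

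Ifit3, whose protein binds viral RNA together with IFIT1, was at 13.5 and 12.5 CPM in KO and 2.10 and 1.19 CPM in WT germinal center libraries. In activated libraries it was at 15.9 and 13.0 CPM in KO and 5.99 and 6.34 CPM in WT. KO was above WT in every library of both states, and the lowest values were those of the WT germinal center libraries. The log2 fold changes were 2.997 ± 0.24 and 1.23 ± 0.16 (adjusted p for both = 6.84e-05). Ifit3 and Ifit3b are near-identical copies, with the same bases in this window, so how the authors' counting split their reads is uncertain. Oasl2, an oligoadenylate synthetase-like antiviral protein, was at 13.0 and 10.8 CPM in KO against 1.47 and 2.28 CPM in WT germinal center libraries, and at 31.8 and 30.8 CPM against 14.9 and 15.5 CPM in activated ones. Its log2 fold changes were 2.64 ± 0.24 and 1.05 ± 0.11, and the groups did not overlap.

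Some interferon genes rose by similar amounts. Ifit1bl1 was at 36.4 and 38.4 CPM in KO and 12.6 and 18.2 CPM in WT germinal center libraries, and at 46.3 and 43.1 CPM and 20.9 and 24.3 CPM in activated ones. Its log2 fold changes of 1.26 ± 0.12 and 0.99 ± 0.10 had the lowest p for both states of the list (adjusted p = 5.63e-07), and the difference was -0.28 ± 0.15. Isg15, a ubiquitin-like modifier, changed by 1.20 ± 0.31 and 1.19 ± 0.25, with a difference of -0.018 ± 0.40. Irf7, the factor that amplifies the response, rose from 33.7 and 39.8 CPM in WT to 91.9 and 93.0 CPM in KO germinal center libraries and from 25.1 and 23.7 CPM to 38.7 and 38.2 CPM in activated ones. It did not overlap between genotypes in either state, and its log2 fold change was larger in germinal center cells (1.32 ± 0.073 against 0.66 ± 0.091; adjusted p of the difference 5.58e-06). At the other end, Mx1, a GTPase that blocks viruses, changed by 4.61 ± 0.21 in germinal center and 0.52 ± 0.14 in activated cells. Of 24 genes that sense or transmit interferon signals, Tlr7, the endosomal RNA sensor, alone rose in both states (3.34 ± 0.13 and 0.49 ± 0.078).

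Antigen presentation genes rose as well, by less. Of 22 MHC class I genes tested, 6 rose in both states and none fell (1.71% and 0.2% of all genes). By the additive test 5 were higher (2.01% of all genes were). The risers were the heavy chain genes H2-K1, H2-Q6, H2-Q7 and H2-T22, the light chain gene B2m and the peptide transporter gene Tap1. B2m was at 654 and 667 CPM in KO and 304 and 322 CPM in WT germinal center libraries, and at 2064 and 1952 CPM and 1752 and 1543 CPM in activated ones. Its libraries separated by genotype in both states, with log2 fold changes of 1.07 ± 0.035 and 0.29 ± 0.058. Tap1 changed by 0.70 ± 0.035 and 0.27 ± 0.053. The count of risers was 1 without activated WT replicate 2 and 2 without activated WT replicate 1. The H2 heavy chain genes share long stretches of sequence, so the split of reads between them is uncertain.

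Of 21 MHC class II genes, 11 were called higher and 4 lower in germinal center cells (22% and 22.1% of all genes were). In both states 5 rose and none fell (1.71% and 0.2% of all genes), and the additive test called 4 higher (2.01%). H2-Aa, the class II alpha chain, rose by nearly the same amount in each state (0.40 ± 0.029 and 0.30 ± 0.060). It was at 1704 and 1771 CPM in KO against 1313 and 1319.7 CPM in WT germinal center libraries and at 2427 and 2232 CPM against 2016 and 1773 CPM in activated ones. H2-Eb1, the beta chain of the other class II pair, and Cd86, a costimulatory ligand for T cells, also rose without a detected difference between the states. The list's medians were close to each other, 0.15 in germinal center and 0.18 in activated cells. With DESeq2, or without activated WT replicate 1 or activated KO replicate 1, 1 gene rose in both states, and without activated WT replicate 2 none did.

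Genes of plasma cells and secretion included the main regulators of the plasma cell step among the risers. Of 30 plasma cell differentiation genes tested, 5 rose in both states and none fell (1.71% and 0.2% of all genes). The 5 were Prdm1, Xbp1, Cd9, Lag3 and Ly6c2. The additive test called 6 higher and 1 lower, Eaf2 (2.01% and 1.13% of all genes were). In germinal center cells 19 of the 30 were called higher and 7 lower (22% and 22.1% of all genes were). Slamf7 was among those lower there (log2 -0.38). Prdm1 encodes BLIMP1, the repressor that ends the B cell program. It was at 19.7 and 16.0 CPM in KO against 5.46 and 5.56 CPM in WT germinal center libraries, and at 21.8 and 24.2 CPM against 15.2 and 14.4 CPM in activated ones. KO lay above WT in both states, with log2 fold changes of 1.69 ± 0.17 and 0.64 ± 0.12 (adjusted p for both = 0.00215). Xbp1, which expands the secretory pathway, was at 190.0 and 183 CPM against 138 and 144 CPM and at 110.0 and 109.7 CPM against 87.3 and 88.7 CPM. Its smaller rise was alike in the 2 states (0.40 ± 0.044 and 0.32 ± 0.063, difference -0.082 ± 0.078). The plasma cell genes Irf4 and Sdc1 were called higher in germinal center cells and had the opposite sign in activated cells (log2 -0.041 ± 0.053 and -0.29 ± 0.087, neither called), so they are not members. The count of risers was 2 without activated WT replicate 2, 3 without activated WT replicate 1 and 2 with DESeq2, and the additive count of 6 was 2 to 4 without any 1 germinal center library.

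Among 42 genes of protein folding and secretion, 23 were called higher and 5 lower in germinal center cells (22% and 22.1% of all genes were). In both states 5 rose and none fell (1.71% and 0.2% of all genes), and 8 were higher by the additive test (2.01%). The 5 were the chaperone Hspa5, the disulfide isomerase Pdia4, the oxidase Ero1l, the vesicle coat gene Sec24d and Xbp1. Hspa5 changed by 0.56 ± 0.031 and 0.25 ± 0.057. Sec24d changed by 0.98 ± 0.16 and 0.67 ± 0.16, with no difference called between the states. The count of 5 was 3 without activated KO replicate 1, 1 without activated WT replicate 1, and 0 without activated WT replicate 2 and with DESeq2, and the additive count of 8 was 2 without any 1 germinal center library. Of 12 immunoglobulin constant genes, 7 were called higher and 5 lower in germinal center cells (22% and 22.1% of all genes were). Igkc and Iglc1 rose in both states (1.71% of all genes did), Igkc by 0.38 ± 0.028 and 0.27 ± 0.060. Ighm missed the test for both states (1.82 ± 0.026 and 0.19 ± 0.051, adjusted p = 0.0513). Of 204 immunoglobulin V, D and J segments tested, 40 rose in both states (1.71% of all genes did) and none fell, with medians of 0.92 and 0.21. Which clones the libraries held was not tested.

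Memory and light zone genes gave mixed results. Of 41 memory and recirculation genes, 6 rose in both states and none fell (1.71% and 0.2% of all genes). The additive test called 2 higher and 2 lower (2.01% and 1.13% of all genes were). Vim, an intermediate filament gene, rose in both states (0.54 ± 0.045 and 0.29 ± 0.055). Others had a large rise in germinal center cells beside a small one in activated cells, among them Plac8 (4.05 and 0.32), the chemokine receptor gene Ccr6 (2.86 and 0.37) and Fcer2a, which encodes CD23 (1.21 and 0.20). The list's median was 1.54 in germinal center and 0.06 in activated cells, and the count of risers was 1 with either activated WT library left out and 3 with DESeq2. Klf2, a quiescence and recirculation factor, rose in germinal center cells (2.22 ± 0.056) and was not called in activated cells (0.0091 ± 0.053).

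Of 31 light zone activation genes, 4 rose in both states and none fell (1.71% and 0.2% of all genes). The additive test called 5 higher (2.01% of all genes were). Lmo2, a transcriptional adaptor, was at 173 and 172 CPM in KO against 97.5 and 102 CPM in WT germinal center libraries and at 134 and 138 CPM against 103 and 96.3 CPM in activated ones. Its genotypes did not overlap, and its log2 fold changes were 0.79 ± 0.048 and 0.45 ± 0.062. Egr1, an immediate early gene of receptor signaling, rose by nearly equal amounts (0.26 ± 0.067 and 0.28 ± 0.067). In the B cell receptor list 3 of 38 rose in both states (1.71% of all genes did). They were the receptor genes Fcgr2b and Pirb and the phosphatase gene Ptpn6. Fcgr2b was at 302 and 308 CPM in KO and 190.1 and 184 CPM in WT germinal center libraries and at 231 and 217 CPM and 197 and 182 CPM in activated ones. It changed by 0.70 ± 0.039 and 0.24 ± 0.057. With either activated WT library left out, or with DESeq2, no gene of the receptor list rose in both states and 1 light zone gene did. Without activated KO replicate 1 the counts were 1 and 2, and without any 1 germinal center library the light zone list had 2 additive calls. No gene of the NF-kB list was called in both states (0 of 31), and 1 was higher by the additive test (1.91% and 2.01% of all genes were). Of 34 STAT3 and cytokine genes, the cytokine receptor genes Il6ra and Il10ra rose in both (1.71% of all genes did). Il6ra changed by 0.82 ± 0.15 and 0.38 ± 0.079.

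Among the members with the largest change in their less affected state, several rose by similar amounts in the 2 states. Anxa1, a phospholipid-binding regulator of inflammation, was at 8.04 and 7.38 CPM in KO and 2.20 and 2.92 CPM in WT germinal center libraries, and at 92.7 and 81.5 CPM and 34.7 and 29.4 CPM in activated ones. KO exceeded WT in every library, with log2 fold changes of 1.57 ± 0.24 and 1.44 ± 0.087 and a difference of -0.13 ± 0.25. Adgrl2, an adhesion receptor gene, was at 10.6 and 10.4 CPM against 2.62 and 4.01 CPM and at 19.96 and 17.3 CPM against 5.99 and 7.73 CPM, with log2 fold changes of 1.63 ± 0.21 and 1.44 ± 0.16. Nebl, which encodes an actin-binding protein, changed by 1.56 ± 0.17 and 1.27 ± 0.22. Gsr, the glutathione reductase, changed by 1.11 ± 0.20 and 1.004 ± 0.086. Cpd, a carboxypeptidase gene, rose more in germinal center cells (3.03 ± 0.35 against 1.29 ± 0.12), and so did Rgs18, a regulator of G protein signaling (2.01 ± 0.23 against 1.02 ± 0.14), and the inhibitory receptor gene Cd300lf (1.70 ± 0.11 against 1.11 ± 0.16).

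Outside the germinal center list, the genes that fell most were of several kinds. Abi2, an adaptor of actin assembly, was at 4.14 and 4.29 CPM in KO and 13.5 and 16.6 CPM in WT germinal center libraries and at 4.91 and 6.06 CPM and 9.91 and 10.6 CPM in activated ones. KO was below WT in both states, with log2 fold changes of -1.85 ± 0.18 and -0.90 ± 0.18. Pfn2, another actin regulator, changed by -1.66 ± 0.24 and -0.76 ± 0.19. Cecr2, a bromodomain protein of chromatin remodeling complexes, was at 129 and 132 CPM against 222 and 208 CPM and at 81.8 and 83.2 CPM against 103 and 108 CPM. It changed by -0.73 ± 0.046 and -0.35 ± 0.065. Hpgds, a prostaglandin synthase, changed by -1.20 ± 0.087 and -0.35 ± 0.092. Armc9, Plxna3 and Xkrx fell with no difference called between the states (log2 -0.65 and -0.53, -0.73 and -0.50, -0.64 and -0.45). Small falls of similar size in each state were those of Pde3b, a phosphodiesterase of cyclic nucleotides, and Strap, an RNA-complex scaffold. Pde3b changed by -0.29 ± 0.066 and -0.30 ± 0.053, and Strap by -0.26 ± 0.051 and -0.32 ± 0.073. Kmt2a, an H3K4 methyltransferase gene, was the member that fell in both states among 39 polycomb and other chromatin regulators (-0.46 ± 0.034 and -0.23 ± 0.055).

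Proliferation and energy genes had few calls in both states, as did all genes tested (1.91%), so a list without calls says little. Of 52 DNA replication genes and 50 genes of G2 and M phase, none was called in both states or by the additive test (1.91% and 3.15% of all genes were). In germinal center cells, however, 39 and 46 were called lower (22.1% of all genes were). The medians of the lists were -0.41 and -0.44 there against 0.05 and 0.14 in activated cells. The replication helicase gene Mcm6, for example, changed by -0.64 ± 0.035 in germinal center cells and 0.045 ± 0.064 in activated ones (adjusted p of the difference 4.79e-13). Of 76 nuclear genes of the respiratory chain, 58 were called lower in germinal center cells (22.1% of all genes were). None was called in both states (1.91% of all genes were). All 13 mitochondrially encoded genes were called higher in germinal center cells (22% of all genes were). In both states 2 rose (1.71% of all genes did), mt-Nd4 (0.78 ± 0.030 and 0.27 ± 0.057) and mt-Co1 (0.88 ± 0.025 and 0.22 ± 0.050). The mitochondrial share of counts given above moved the same way, and its part in these results was not tested. Of 34 genes of lipid synthesis, Scd2, a fatty acid desaturase, alone rose in both (0.24 ± 0.046 and 0.35 ± 0.075), where 1.71% of all genes did. No glycolysis, ribosome biogenesis, apoptosis or p53 target gene was called in both states, of 25, 44, 25 and 22 tested (1.91% of all genes were).

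**Figure D3:**
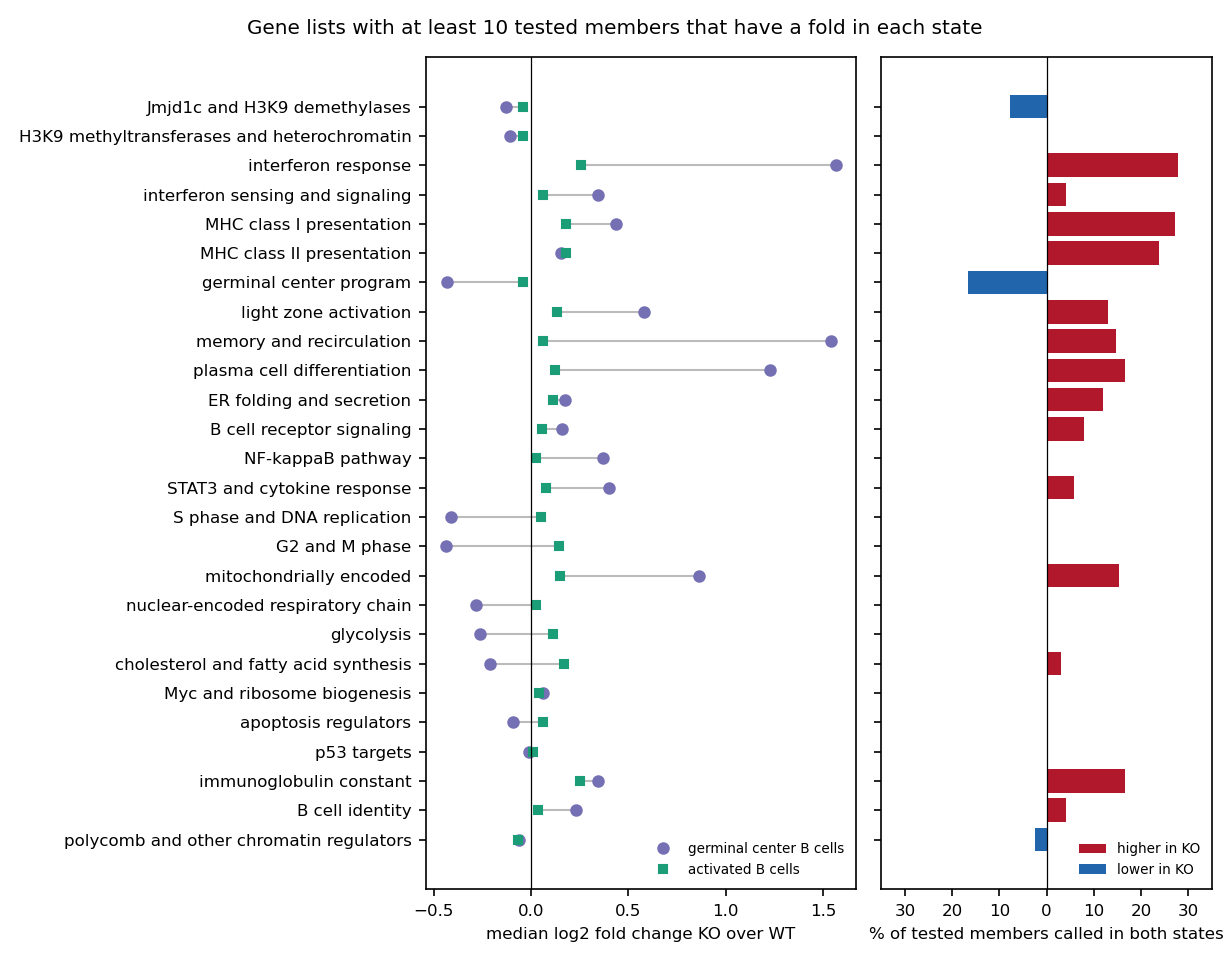
Gene lists with at least 10 tested members that have a fold in each state. Left, the median log2 fold change KO over WT in germinal center (circles) and activated (squares) B cells, with genes near 0 counts at their bound; right, the percent of tested members called in both states, higher to the right and lower to the left. Of the lists plotted, which leave out the marker lists of other cell types, interferon response has the most risers (22 of 79) and the germinal center program the most genes that fell (6 of 36), and the medians of most lists lie nearer 0 in activated cells.

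Summed monocyte, neutrophil, erythroid, T and NK cell and dendritic cell markers were also higher in KO in each state, while single markers varied. Of the 257 risers (1.71% of all genes tested), 17 belong to marker lists of cells other than B cells, and none of the 30 genes that fell does. Of 21 monocyte and macrophage markers tested, 8 rose in both states (5 without activated WT replicate 2, 4 with DESeq2). In germinal center cells 14 were called higher and in activated cells 11 (22% and 4.42% of all genes were), and none was called lower. Spic, C1qa and Cd5l were called higher in germinal center cells but had the opposite sign in activated cells (log2 -0.26, -0.38 and -0.19, none called). The 8 that rose include other members. Among these 8, Mpeg1, a pore-forming protein of macrophages, changed by 2.23 ± 0.090 and 0.44 ± 0.052. Csf1r, the receptor for the macrophage growth factor, changed by 0.67 ± 0.12 and 0.50 ± 0.072. Of 13 erythroid markers 6 rose in both states, and the 13 summed to 169 and 182 CPM against 134 and 144 CPM in germinal center and to 1115 and 1300 CPM against 797 and 802 CPM in activated libraries. Members of this list differed: the alpha globin gene Hba-a1, which has near-identical copies, was at 16.7 and 20.5 CPM in KO and 0.839 and 0.821 CPM in WT germinal center libraries, while Tfrc, the transferrin receptor gene that dividing cells also use, was called lower there (log2 -0.39). The other lists of foreign markers had 1 riser each among the neutrophil, T and NK cell and dendritic cell genes and none among 2 platelet and 3 stromal genes tested. The 22 T and NK cell markers summed to 253 and 254 CPM in KO against 171 and 173 CPM in WT germinal center libraries, and to 243 and 249 CPM against 204 and 209 CPM in activated ones. Cd3e, a T cell receptor complex gene, made up little of the germinal center sums (1.10 and 1.31 CPM in KO, 0 in WT). Cd2 was called higher there (log2 0.98) and Lck was not called (-0.14). Abundant members lead such sums, which do not measure the share of a cell type. The 12 dendritic cell markers summed to 129 and 120 CPM against 79.6 and 82.0 CPM in germinal center and to 133 and 138 CPM against 98.4 and 107 CPM in activated libraries. At 0 counts in WT germinal center libraries were 3 of the monocyte, 3 of the erythroid and 6 of the T and NK cell markers, and in KO ones 1 of each. In activated libraries 1 monocyte marker was at 0 in each genotype, no erythroid marker was, and 1 T and NK cell marker in KO and 2 in WT were.

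Neutrophil transcripts rose in activated cells, where all 16 markers were called higher (4.42% of all genes were). They summed to 2158 and 2605 CPM in KO against 604 and 683 CPM in WT activated libraries, but to 2.14 and 3.17 CPM in KO and 0.630 and 1.09 CPM in WT germinal center libraries, where 10 of the 16 in KO and 12 of the 16 in WT were at 0 counts. In germinal center cells 3 of the 16 were called higher (22% of all genes were) and none lower. There 15 had 3 or fewer counts in a genotype, and Camp, Mmp9 and Prtn3 had negative fitted changes that were not called. Ltf, which encodes the granule protein lactoferrin, was called in both states with 12 counts in KO and 0 in WT germinal center libraries, at least 4.94-fold higher with a floor of 3 counts over the group. Alox5ap, a leukotriene synthesis gene of myeloid cells, had 11 and 0 counts there (at least 4.52-fold higher). Ly6c2, a monocyte and plasma cell surface protein, had 135 counts in KO and 1 in WT, a ratio of 167 with an exact 95% interval of 29.4 to 6627 for counting error only. In activated cells these 3 genes changed by 1.78 ± 0.068, 1.19 ± 0.13 and 1.92 ± 0.10. In germinal center cells all 3 reached the 10 counts needed for a sign only through KO libraries. Such a gene could enter there only as a riser, so the rule set its direction. Itgam, which encodes the myeloid integrin CD11b, was at 2.80 and 1.31 CPM in KO and 0.420 and 0.456 CPM in WT germinal center libraries and at 25.5 and 20.8 CPM and 10.7 and 9.12 CPM in activated ones. Lyz2, lysozyme of myeloid cells, was at 868 and 785 CPM in KO and 457 and 414 CPM in WT activated libraries. Hba-a1 was at 359 and 303 CPM and 209 and 196 CPM there. In WT germinal center libraries Itgam had 4 and 5 counts and Lyz2 had 4 and 2, so the rule set their direction in that state too. The part of such cells, or of free RNA, in the shared response was not tested, and it touches the interferon, MHC and monocyte genes named above, which myeloid cells also express. Summed B cell markers were 9639 and 9673 CPM in KO and 7630 and 7724 CPM in WT germinal center libraries, and 6864 and 6985 CPM against 7006 and 7062 CPM in activated ones.

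**Figure D4:**
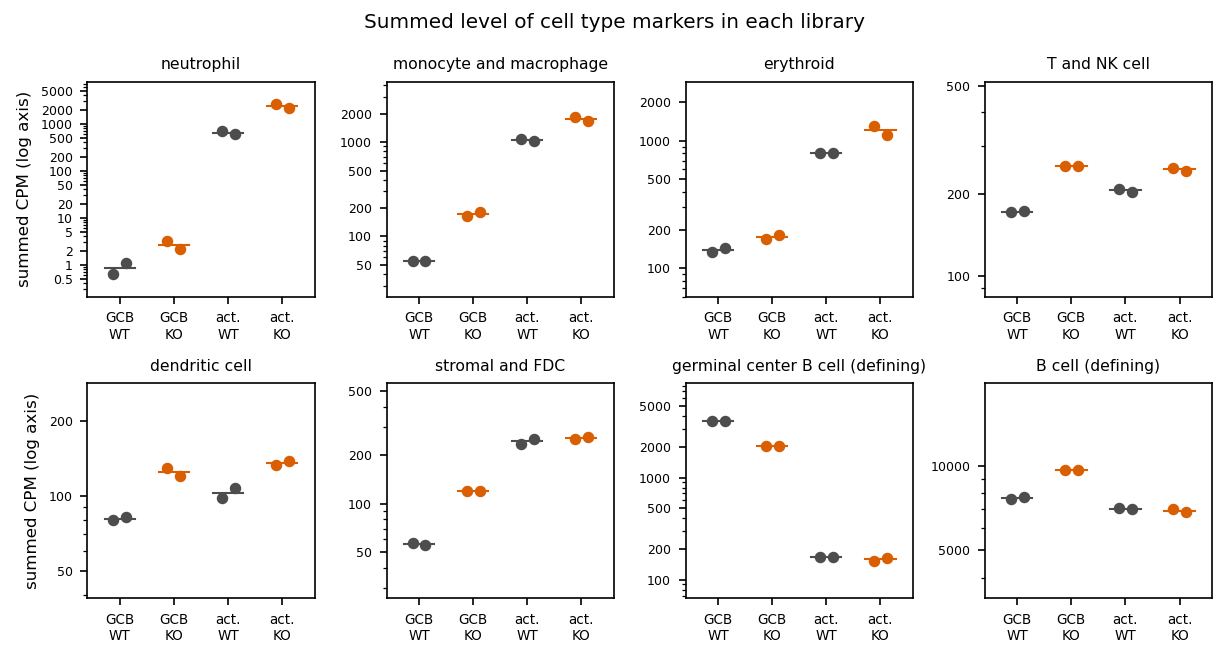
Summed level of each marker list in CPM (log axis), 1 point per library, by state and genotype. Neutrophil markers are high in activated libraries and near 0 in germinal center libraries, and the monocyte and erythroid sums are higher in KO in both states.

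Around Jmjd1c on chromosome 10, 38 of 170 genes within 5 Mb were tested. In both states 2 rose and none fell (1.71% and 0.2% of all genes). Rhobtb1 lies at 69151434 to 69291791. It was at 5.11 and 5.36 CPM in KO and 2.73 and 1.55 CPM in WT germinal center libraries, and at 15.6 and 14.2 CPM and 6.504 and 6.05 CPM in activated ones. KO was above WT in both states with near-equal log2 fold changes (1.31 ± 0.29 and 1.25 ± 0.16). Tmem26, a membrane protein gene at 68723646 to 68782650, changed by 3.58 ± 0.29 and 0.93 ± 0.13. The medians of the 38 genes were 0.03 and 0.02. None of 8 sex-linked genes tested was called by either test (1.91% of all genes were called in both states and 3.15% by the additive test). The Y-linked gene Ddx3y was expressed in every library.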

How the data were processed

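RNA of 8 mouse libraries was sequenced, and the authors deposited raw read counts for each gene. The submitters' processing notes name Trimmomatic, DESeq2 and the build mm10. The aligner, counter and strandedness were not given in the sources used here, so reads of a gene and an overlapping antisense gene may be mixed. Among named genes this touches Kdm3b (24.6% of exon length overlaps opposite exons), Csf1r (15.1%), Alox5ap (13.3%) and Cd9 (10.7%). The 5 summary lines without a gene were dropped (no feature 47.2% to 53.9%, ambiguous 1.12% to 1.26% of all reads). Of 55401 identifiers, 55141 are in GENCODE M21, whose symbols and GRCm38 coordinates were used. Of 990 distinct listed symbols 986 matched.

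Groups and replicate numbers came from the sample titles. The counts were tested with edgeR 4.0.16 in R 4.3.3 (TMM, filterByExpr over the 4 groups, quasi-likelihood F test, Benjamini-Hochberg adjustment over all 14992 genes, adjusted p under 0.05). Fits were the additive one (state as block, 8 libraries), 1 for each state (4 libraries, same genes) and 1 of the 4 group means, which tested the difference of the KO effects as activated minus germinal center. The larger of the 2 within-state p-values was adjusted over all genes. A sign needed 10 counts in each state. Log2 fold changes are KO over WT with SE, given first for germinal center and then for activated cells where 2 stand together. A group with 3 or fewer counts got a ratio with its 95% interval or a bound, which cover counting error only. A gene at 1 CPM rests on about 10 counts a library. The fits were tested on simulated counts. Replicates of a group differed by more than sampling noise (chi-square per degree of freedom 1.378 to 2.283).

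The members, gene lists and rules were chosen with earlier results of these data known. Named genes were Jmjd1c, up to 14 in each direction called by both tests with at least 50 counts on average, no overlap of genotypes in either state and the largest change in the less affected state, up to 4 risers or fallers of each list with the lowest p, and members needed to describe a split. Predicted genes and immunoglobulin variable segments were left out of the first of these. The complete names of short groups of called genes (interferon risers, additive calls of a list) were added after their values were seen. Some genes that met these rules are not reported here. Lists were described by counts and medians, with no set test. Alternatives were DESeq2 1.42.0, other size factors, other filters, other designs and leaving out each library in turn.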

Additional observations from a re-analysis of the deposited data

Results flagged for a closer look

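Of 82 named genes, 52 had KO effects that differed between the states (adjusted p of the difference at most 0.0327, edgeR), against 31.2% of all genes tested. Differences are in log2, activated minus germinal center, so a riser with a negative value rose less in activated cells. The absolute effect was larger in germinal center cells for 49 of the 52. Jmjd1c (-0.74) and Gcsam (-1.71) are lower genes with a larger fall in activated cells.

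Interferon and MHC class I genes rose less in activated cells. The differences were -4.09 for Mx1, -2.86 for Tlr7, -1.78 for Ifit3, -1.59 for Oasl2, -0.67 for Irf7, -2.12 for H2-Q7, -1.89 for H2-Q6, -0.79 for B2m and -0.44 for Tap1. Memory, light zone and receptor genes did so too, with -3.73 for Plac8, -2.49 for Ccr6, -1.02 for Fcer2a, -0.27 for Vim, -0.34 for Lmo2, -1.45 for Il10ra, -0.44 for Il6ra, -1.84 for Pirb and -0.47 for Fcgr2b. For secretory and antibody genes the differences were -1.05 for Prdm1, -1.27 for Cd9, -1.60 for Pdia4, -0.32 for Hspa5, -0.29 for Iglc1 and -1.64 for Ighm. The mitochondrial genes mt-Co1 and mt-Nd4 had -0.67 and -0.52. Tmem26, Cpd, Rgs18 and Cd300lf had -2.67, -1.74, -0.999 and -0.60.

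Markers of other cell types had -1.79 for Mpeg1, -2.62 for Lyz2 and -3.75 for Hba-a1. Ly6c2 (-5.12), Ltf (-4.04) and Alox5ap (-4.51) had 0 or 1 counts in WT germinal center cells, so the fitted size depends on the prior count and is no measure of the difference.

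Genes lower in KO with a smaller effect in activated cells were Abi2 (0.94), Pfn2 (0.89), Hpgds (0.84), Rgs13 (0.63), Cecr2 (0.37) and Kmt2a (0.22), and the Y-linked gene Ddx3y had 0.23. Irf4 (-1.40), Sdc1 (-2.38), Kdm3a (-0.21), Bcl6 (0.74), Fas (0.70) and Mcm6 (0.68) had opposite signs in the 2 states, and Klf2 (-2.22) had a log2 fold change of 0.0091 in activated cells.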

How the results depend on the processing

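The counts moved with the test, the filter and single libraries, while the additive log2 fold change of no named gene called by either test (79 genes) changed sign under any alternative run. Against 302 higher and 170 lower genes by the additive test, 257 and 30 in both states, and 6601 and 849 calls in the single states, DESeq2 gave 690 and 382, 91 and 9, and 4233 and 347, with 3047 differences between the states in place of 4685. All 100 of its calls in both states were among the 287. With no filter on low counts the additive counts were 771 and 415, those in both states 134 and 11, and activated cells had 449 calls. With 4 group means the additive counts were 1855 and 1597 and 75 genes fell in both states. An adjusted p under 0.05 in each state gave 55 genes that fell, and a change of at least 1.5-fold in each state left 116 and 8. Other size factors, scaling without immunoglobulin and mitochondrial genes, and a stricter filter moved no count past 1.5 times.

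Leaving out 1 library gave 87 to 296 higher and 25 to 176 lower genes by the additive test, 67 to 242 and 7 to 33 in both states, 5513 to 6675 calls in germinal center cells, 258 to 936 in activated cells and 3851 to 4493 differences. The lowest additive counts came from leaving out a germinal center library, and the lowest counts in both states from leaving out an activated WT library. With 1 library left in a group, its spread is assumed to be that of the others. Same-numbered libraries did not pair (correlations of their deviations 0.0057 in germinal center and 0.00991 in activated cells). With the replicate number as a replicate block, the additive test called 5 and 2 genes (interferon list 0 in place of 23, germinal center program 1 in place of 11, and 0 for the MHC, secretion, plasma cell and light zone lists), activated cells had 1342 calls, and 366 rose and 77 fell in both states, all 287 included. At 2 libraries a group, differences of low-count genes were the least precise.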
